A study of Mus musculus with 6 samples.

Results

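The 8 genes described here encode transcription factors that pattern the segments of the kidney tubule: Hnf4a, Hnf4g, Pax8, Lhx1, Pou3f3, Irx1, Irx2 and Irx3. They were chosen by symbol, and each matched 1 row of the 23669 gene rows in the deposited table. RNA was sequenced from whole kidneys of mice at postnatal day 3, in 3 wild type libraries and 3 libraries of the genotype R26NICD2/+Kspcre, called NICD2 below. R26NICD2/+ is an allele at the Rosa26 locus for the intracellular domain of Notch2, the part of the receptor that enters the nucleus and switches on target genes once Notch is activated. Kspcre drives Cre from the Ksp-cadherin (Cdh16) promoter. This promoter is active in the epithelium of tubules and collecting ducts and not in the other cells that a whole kidney holds. Which tubule segments carried the active allele in these samples cannot be told from whole kidney RNA. Nothing in the labels says that the 3 samples of each genotype are different animals, so p-values measure the spread between these samples. By its title, the series concerns active Notch2 signalling in the growth of kidney cysts.

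The nephron forms from a renal vesicle that elongates and divides into proximal tubule, loop of Henle and distal tubule. Pax8 and Lhx1 act when the vesicle forms and are kept in tubule epithelium, Hnf4a drives the maturation of the proximal tubule, Pou3f3 (Brn1) is needed for the loop of Henle and distal tubule, and Iroquois (Irx) factors mark the intermediate part of the early nephron that gives rise to the loop. Notch signalling in the same early structures is known to promote proximal identity.

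Of the 8 factors, 1 changed by the test used here: Irx2 rose in NICD2, and none fell. The test was limma on log2(FPKM + 1), FPKM being fragments scaled to transcript length and library size, with a Benjamini-Hochberg adjusted p under 0.05 as the threshold over the 13765 genes that reached 1 FPKM in 3 or more libraries. All 8 factors passed that filter. Across all tested genes 8.79% were called, 4.93% higher and 3.86% lower, so 1 of 8 is near the background. Among 2284 tested genes with a transcription factor label in the deposited table, a background added after the values were seen, 6.92% were called, 3.11% higher and 3.81% lower. The median log2 fold change of the 8 was -0.02 and that of all tested genes -0.01. The groups did not overlap for Irx1, Irx2 and Irx3, which is 3 of 8, where 30.5% of all tested genes had groups that did not overlap. In whole kidneys, fewer cells of a type and less RNA per cell cannot be told apart.

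The libraries bear on how these values read. Depth, estimated from how low FPKM values step from one to the next, was 15850000 to 16900000 fragments per library. Slc34a1, Umod and Nphs1, which mark proximal tubule, thick limb and podocytes, were expressed throughout, as a kidney should. The row for human Notch2, taken here as the transgene, held at most 0.03 FPKM in wild type and 60.2 to 79.6 FPKM in NICD2, while mouse Notch2 was at 17.0 and 17.3 FPKM. Of known Notch targets, Nrarp, Heyl, Hey2, Hes1 and Dtx1 rose (log2 fold change 2.88, 1.91, 1.02, 0.74 and 1.20) and Hey1 was not called (-0.04). Hes5, at 0.56 to 1.42 FPKM, was below the filter. NICD2 replicate 3 held 0 FPKM for 4 Y-linked genes that the other libraries expressed. By these genes it reads as female and the others hold male tissue, so sex is not balanced between the genotypes. The part of sex in the differences was not tested. The summed level of 9 adrenal markers was 191 to 202 FPKM in 4 libraries but 5.27 in wild type replicate 3 and 2.16 in NICD2 replicate 1. Since both groups have 1 library with few adrenal transcripts, a fit with a term for it was added after the values were seen, and each member's difference was taken within both kinds of library. Summed levels of 7 immune markers were 57.0 to 84.0 FPKM in wild type and 74.3 to 101 in NICD2. Of the 6 that could be tested none was called, but with the replicate number as a block Lyz2 and C1qa were higher in NICD2 (log2 fold change 0.43 and 0.32, adjusted p = 0.0277 and 0.0366). They were called under no other setting, and without the block their limma adjusted p was 0.254 and 0.349. Their log2 differences were 0.03 and -0.01 within the 4 libraries with adrenal transcripts. Between wild type replicate 3 and NICD2 replicate 1 they were 1.23 and 0.98.

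FPKM is per transcript length, which allows levels of different genes to be set side by side. Rows that overlap other genes limit this. The row of Lhx1 also spans a neighbouring noncoding gene, and its place is that of the row. Those of Hnf4a, Pax8, Irx3 and Pou3f3 overlap noncoding genes as well, as given below. In wild type kidneys the order of mean levels was Pax8, Hnf4a, Irx1, Pou3f3, Irx3, Lhx1, Irx2 and Hnf4g. Neighbours in this order had ranges that did not overlap, except Irx3 and Lhx1. In NICD2 kidneys the order was Pax8, Irx1, Hnf4a, Pou3f3, Irx2, Irx3, Lhx1 and Hnf4g, and the ranges of Irx1 and Hnf4a and of Irx3 and Lhx1 overlapped. Irx2 stood below Irx3 in all 3 wild type libraries and above it in all 3 NICD2 libraries. By mean FPKM over all libraries, Pax8 ranked 73rd among the 2284 genes with a transcription factor label and Hnf4g 2215th.

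**Figure D1:**
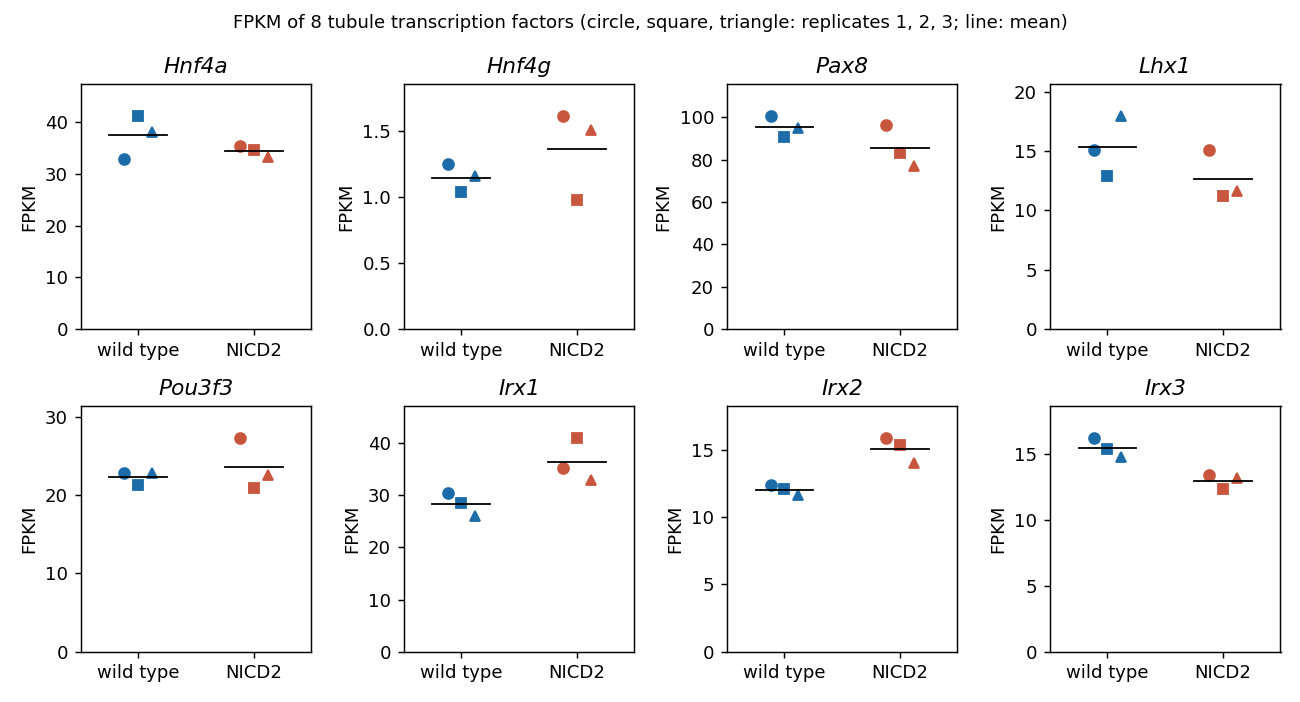
FPKM of the 8 factors in each library (y axis, from 0, its scale differing between panels), with wild type in blue, NICD2 in red, a symbol per replicate and a line at the mean of 3. The groups are apart for Irx1 and Irx2, higher in NICD2, and for Irx3, lower in NICD2, and overlap for the other 5 factors.

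The promoter of Irx2, the only factor called, is shown with that of Pou3f3, which was not called, since both hold the same core motif bound by RBPJ, the DNA-binding partner of the Notch intracellular domain. Capitals mark the 6-letter core, TGGGAA or on the other strand TTCCCA. Each run gives the 250 bases before the gene's start in RefSeq on GRCm38.p6, at chr13:72628570-72628819 for Irx2 and chr1:42695518-42695767 for Pou3f3, both read on the plus strand.
Irx2: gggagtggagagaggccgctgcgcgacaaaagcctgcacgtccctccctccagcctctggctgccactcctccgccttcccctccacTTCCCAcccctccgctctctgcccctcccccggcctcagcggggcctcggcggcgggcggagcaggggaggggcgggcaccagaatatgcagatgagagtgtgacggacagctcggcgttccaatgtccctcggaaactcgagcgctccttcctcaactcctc
Pou3f3: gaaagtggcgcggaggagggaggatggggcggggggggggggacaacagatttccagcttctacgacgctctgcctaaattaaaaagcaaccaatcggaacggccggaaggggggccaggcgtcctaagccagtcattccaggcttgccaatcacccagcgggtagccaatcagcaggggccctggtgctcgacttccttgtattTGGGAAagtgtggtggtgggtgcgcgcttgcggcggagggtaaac
The match starts 163 bases before the start of Irx2 and 45 bases before that of Pou3f3. The deposited row of Irx2 starts at 72628797, so the end of its window, though not the match, lies within the row. Of 32851 promoter windows of the same length, 21.6% hold the core on either strand, and it was the only motif searched. RefSeq promoters matched 6 of the 8 factors. Irx3 has 1 match as well, 82 bases before its RefSeq start, in a window that lies within the span of the gene in GENCODE M21. The windows of Pax8, Lhx1 and both starts of Hnf4a have none of these letters. Irx1 and Hnf4g had no entry. The windows of Irx2 and Pou3f3 hold 68.4% and 60.8% G and C, against a median of 52.4% over all windows, and 19 and 15 CG pairs, against a median of 6. Among windows without a match, that of Lhx1 holds 64.8% G and C and 26 CG pairs, and that of Pax8 60.4% and 6. The windows of the Hnf4a starts hold 51.2% and 57.6%, with 3 and 4 CG pairs. A match describes the letters and is not a site shown to be bound.

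The Irx genes lie in clusters on different chromosomes, and the 3 members among them were the factors whose groups did not overlap. Among all tested genes 30.5% had groups that did not overlap, so 3 of 8 is not read as a trait of the family. Irx1 (gene 16371, chromosome 13, 71958232 to 71963723, minus strand) and Irx2 (gene 16372, chromosome 13, 72628797 to 72634196, plus strand) are neighbours with Irx4, while Irx3 (gene 16373, chromosome 8, 91798511 to 91801654, minus strand) lies with Irx5 and Irx6, all on GRCm38. Iroquois proteins are homeodomain transcription factors of the TALE class. Irx2 was at 12.34, 12.07 and 11.62 FPKM in wild type replicates 1 to 3 and at 15.86, 15.36 and 13.98 FPKM in NICD2. Every NICD2 library was above every wild type library. The means were 12.01 ± 0.364 and 15.07 ± 0.974 FPKM (SD, n = 3 each), a log2 fold change of 0.30 ± 0.07 (SE) with limma adjusted p = 0.0322. Of 6 fits with 1 library removed, the Irx2 call held in 1, without NICD2 replicate 3 (adjusted p = 0.0337). It was lost without wild type replicate 1, 2 or 3 (adjusted p = 0.0502, 0.102 and 0.0894) and without NICD2 replicate 1 or 2 (adjusted p = 0.122 and 0.0984), and the log2 fold change stayed between 0.27 and 0.35.

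Irx1, the most abundant of the family here, was at 30.38, 28.53 and 26.01 FPKM in wild type and at 35.32, 41.01 and 32.88 FPKM in NICD2. The groups did not overlap, but the difference did not pass the threshold. The log2 fold change was 0.35 ± 0.09 (95% interval 0.14 to 0.56, limma adjusted p = 0.0538). Without NICD2 replicate 3, the library with no Y-linked transcripts, Irx1 was called (log2 fold change 0.42, adjusted p = 0.0412). Irx3 was at 16.22, 15.42 and 14.81 FPKM in wild type and at 13.39, 12.32 and 13.20 FPKM in NICD2. Each NICD2 library was below each wild type library, and the log2 fold change of -0.24 ± 0.07 did not pass (95% interval -0.39 to -0.09, limma adjusted p = 0.0635). Within the 4 libraries with adrenal transcripts the log2 differences of Irx1, Irx2 and Irx3 were 0.31, 0.25 and -0.29, and between the other 2 libraries 0.43, 0.42 and -0.14. With the adrenal term Irx2 was called (adjusted p = 0.0448) and Irx1 and Irx3 were not (adjusted p = 0.0561 and 0.0815).

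Irx5, the neighbour of Irx3 and a relative from a separate list, fell, at 3.49, 3.95 and 3.82 FPKM in wild type and 2.33, 2.60 and 2.93 FPKM in NICD2. Its log2 fold change was -0.40 ± 0.10 (limma adjusted p = 0.0399), and among the fits with 1 library removed the call held only without NICD2 replicate 3. Removing any wild type library, NICD2 replicate 1 or NICD2 replicate 2 ended the call, the highest adjusted p being 0.146. Testing all genes without the filter also ended it (adjusted p = 0.0798), as did the replicate block (adjusted p = 0.052), and Irx5 was not tested under the stricter filter. Irx4 and Irx6 were listed at 0.06 to 0.25 and at 0.02 to 0.09 FPKM, below the filter. The tested genes of the chromosome 13 cluster (Irx1, Irx2) had positive differences and those of the chromosome 8 cluster (Irx3, Irx5) negative ones, and of these Irx2 and Irx5 were called.

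**Figure D2:**
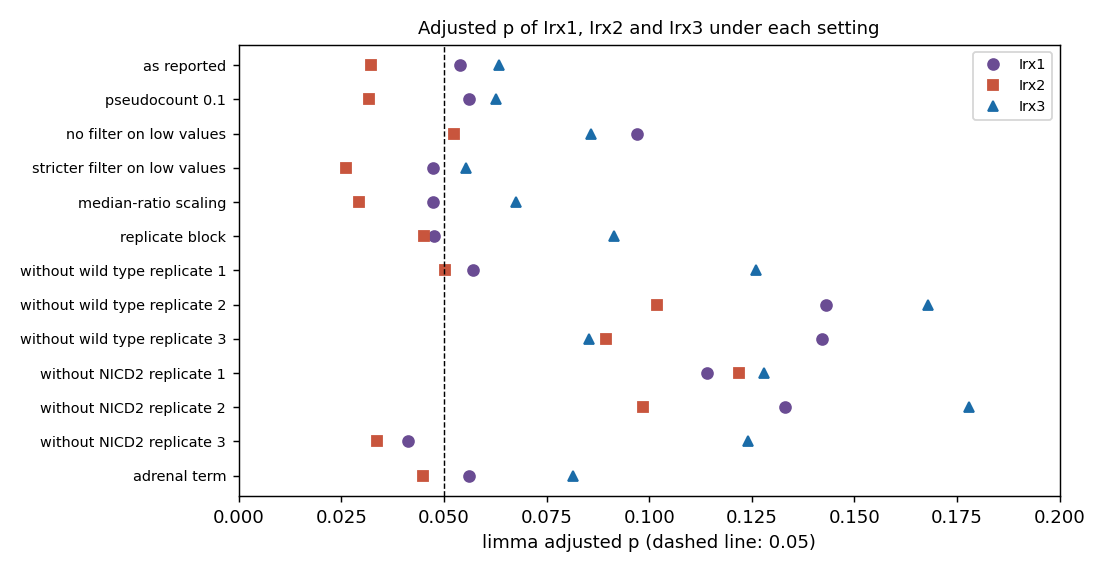
Adjusted p of Irx1, Irx2 and Irx3 from limma (x axis, linear) under the reported setting and each alternative (y axis), with a dashed line at 0.05. Irx2 lies left of the line in 7 of 13 settings, Irx1 in 4, and Irx3 in none.

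Ratios within a library show how the members moved against each other. The ratio of Irx2 to Irx3 FPKM was 0.761, 0.783 and 0.785 in wild type and 1.18, 1.25 and 1.06 in NICD2. No NICD2 library reached down to a wild type one, and the log2 ratio differed by 0.54 (exact two-sided permutation p = 0.1, the smallest that 3 against 3 allows, 0.2 adjusted over 4 pairs). For Irx1 over Irx3 the ratios were 1.87, 1.85 and 1.76 in wild type and 2.64, 3.33 and 2.49 in NICD2, a log2 difference of 0.59 (exact permutation p = 0.1, 0.2 adjusted). Irx1 over Irx2, the pair from one cluster, was 2.46, 2.36 and 2.24 in wild type and 2.23, 2.67 and 2.35 in NICD2. These ranges overlapped, with a log2 difference of 0.05 (exact permutation p = 0.6, 0.6 adjusted), which became -0.03 without NICD2 replicate 2. Chosen after the values were seen, the summed FPKM of Irx1 and Irx2 over that of Irx3 and Irx5 was 2.17, 2.10 and 2.02 in wild type and 3.26, 3.78 and 2.91 in NICD2. By the same choice, Irx2 over Irx5 was 3.04 to 3.54 in wild type and 4.77 to 6.81 in NICD2. A p under 0.05 cannot be reached by these permutation tests. Every NICD2 library was above every wild type library for Irx1 and Irx2, and below for Irx3 and Irx5. The separation of the ratios across clusters, with its exact permutation p = 0.1, follows from that and adds no further support.

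**Figure D3:**
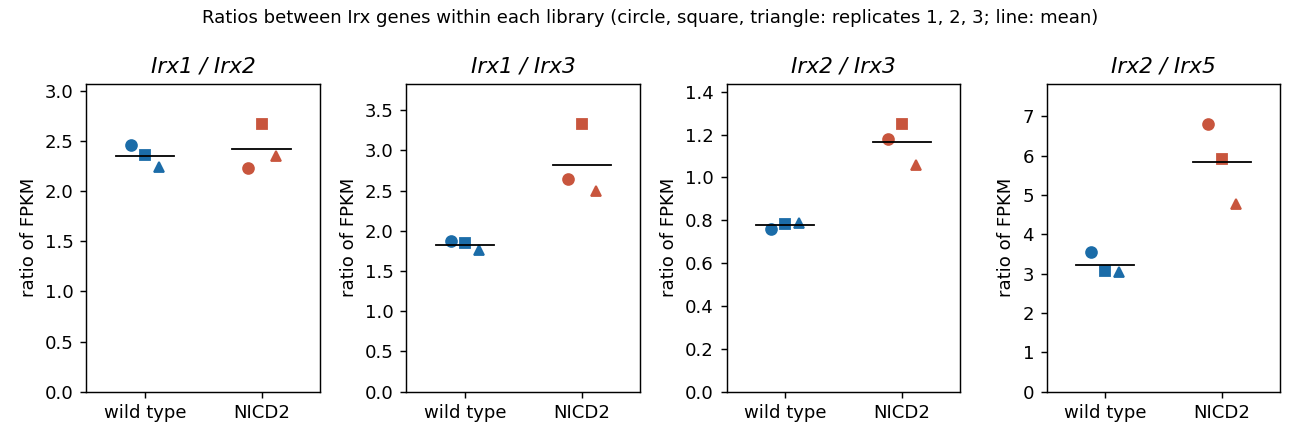
Ratio of FPKM between pairs of Irx genes in each library (y axis, from 0), wild type in blue and NICD2 in red, with a symbol per replicate and a line at the mean. Irx1 over Irx2 overlaps between groups, while the 3 ratios across clusters do not, which follows from the separate groups of the single genes.

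By a rule of the smallest root mean square difference in centred log2(FPKM + 1) over the 6 libraries, among 10269 tested genes with a mean of at least 5 FPKM, the genes most like Irx2 were Nup85, a nuclear pore component, and Cd276, a surface protein of the B7 family. The differences were 0.0184 and 0.0269 on the log2 scale. Nup85 was at 14.4 to 15.3 FPKM in wild type and 17.0 to 18.8 FPKM in NICD2, so the likeness follows the difference between the groups.

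Among the factors of the early nephron, Pax8, a paired-box factor required with Pax2 for nephron formation, was the most abundant. Pax8 (gene 18510, chromosome 2, 24420551 to 24475599, minus strand) was at 100.73, 90.85 and 95.13 FPKM in wild type and at 96.22, 83.34 and 77.05 FPKM in NICD2. The groups overlapped through NICD2 replicate 1, and the log2 fold change was -0.16 ± 0.09 (95% interval -0.36 to 0.04, limma adjusted p = 0.291). Its difference was -0.25 within the 4 libraries with adrenal transcripts and 0.02 between the other 2. Pax2, the relative of Pax8 and a marker of nephron progenitors and collecting duct, fell, at 48.83, 41.82 and 42.61 FPKM in wild type and 35.12, 30.71 and 31.34 FPKM in NICD2 (log2 fold change -0.44 ± 0.08, adjusted p = 0.0124), and was called whichever library was removed. The ratio of Pax8 to Pax2, a pair chosen after the values were seen, was 2.06, 2.17 and 2.23 in wild type and 2.74, 2.71 and 2.46 in NICD2, ranges that did not overlap (exact two-sided permutation p = 0.1, the smallest possible).

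Lhx1, a LIM homeodomain factor of the renal vesicle, was at 15.07, 12.92 and 17.98 FPKM in wild type and at 15.10, 11.19 and 11.66 FPKM in NICD2. NICD2 replicate 1 lay inside the wild type range. The log2 fold change was -0.26 ± 0.14 (95% interval -0.57 to 0.05, limma adjusted p = 0.285), the widest interval together with that of Hnf4g among the 8. With the adrenal term its adjusted p was 0.0804. The row for Lhx1 (gene 16869) spans chromosome 11, 84517621 to 84535830 on the minus strand, while the gene in GENCODE M21 spans 84518284 to 84525535, the latter being its 5′ boundary. Upstream of that the row covers 10171 bases of Lhx1os, a noncoding gene on the plus strand at 84525660 to 84535831. The longest Lhx1 transcript in the authors' deposited table is 16521 bases. Whether counting used strand is not stated, so fragments of Lhx1 and Lhx1os cannot be told apart in this row.

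Of 15 tested renal vesicle genes, 2 rose and 2 fell, and the median log2 fold change was 0.12. Ccnd1, which encodes cyclin D1, and the Notch ligand Jag1 rose (log2 fold change 1.21 and 0.98, adjusted p = 2.17e-05 and 1.69e-04). The ligand Dll1 and the cadherin Cdh4 fell (-0.53 and -0.41, adjusted p = 0.013 and 0.0179). No member of this list was called lower without wild type replicate 3, and 1 was without NICD2 replicate 1 or 3. Without NICD2 replicate 3 the number that rose was 3. Wnt4, which induces the vesicle, was at 25.2 and 30.1 FPKM (adjusted p = 0.200), named after its values were seen. Of 9 cofactors of LIM, POU and other homeodomain proteins, Ssbp3 and Meis2 fell (log2 fold change -0.39 and -0.30, adjusted p = 0.0123 and 0.0235) and none rose. In this list none was called without wild type replicate 2, and 1 was with the replicate block and after removal of wild type replicate 3, NICD2 replicate 1 or NICD2 replicate 3. Of 9 tested progenitor genes, Sall1 (log2 fold change -0.44, adjusted p = 0.0175) and Pax2 fell, none rose, the median was -0.29, and 1 of them was called after removal of wild type replicate 2, NICD2 replicate 2 or NICD2 replicate 3. Sall1 lost its call in those fits and with wild type replicate 3 removed (highest adjusted p = 0.0623).

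In the proximal tubule group, Hnf4a, the nuclear receptor that switches on transport and metabolic genes, was at 32.90, 41.24 and 38.13 FPKM in wild type and at 35.32, 34.58 and 33.32 FPKM in NICD2. All 3 NICD2 values lay inside the wild type range. The log2 fold change was -0.11 ± 0.08 (95% interval -0.31 to 0.08, limma adjusted p = 0.459), and -0.11 both within the 4 libraries with adrenal transcripts and between the other 2. Hnf4a (gene 15378) lies on chromosome 2, 163506809 to 163572907, on the plus strand, and uses alternative starts that the gene-level values do not separate. Hnf4g, its close relative (gene 30942, chromosome 3, 3508030 to 3659800, plus strand), was near the filter, at 1.25, 1.04 and 1.16 FPKM in wild type and 1.62, 0.98 and 1.51 FPKM in NICD2. The NICD2 values lay on both sides of the wild type range, and the log2 fold change was 0.13 ± 0.13 (95% interval -0.18 to 0.44, limma adjusted p = 0.595). By the longest transcript of each gene, these levels stand for about 67 to 111 fragments per library, against 2236 or more for Hnf4a. Shorter transcripts would give fewer fragments. Hnf4a was 26.3, 39.7 and 32.9 times the level of Hnf4g in wild type and 21.8, 35.3 and 22.1 times in NICD2, ranges that overlapped (exact two-sided permutation p = 0.2, 0.267 adjusted over 4 pairs).

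Of 30 proximal tubule genes, 6 fell and 1 rose (median log2 fold change -0.10), while Hnf4a was not called. The phosphate transporters Slc34a1 and Slc34a3 fell (log2 fold change -0.63 and -0.69, adjusted p = 0.00579 and 0.0167), as did Ttc36 (-0.59, adjusted p = 0.00281). The bicarbonate transporter Slc4a4 rose (0.85, adjusted p = 0.00528). The count that fell was 2 without wild type replicate 2 or 3, 3 without NICD2 replicate 1 and with no filter on low values, and 4 without wild type replicate 1, and 3 genes rose without NICD2 replicate 2. Slc34a3 was not called with wild type replicate 2 or 3 removed (highest adjusted p = 0.0757). Of 5 genes of the immature proximal tubule, Osr2 and Fam107a fell and Dcdc2a rose (log2 fold change -0.46, -0.61 and 0.94, adjusted p = 0.00814, 0.00125 and 0.00122).

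For the loop of Henle, Pou3f3, a POU-domain factor (gene 18993, chromosome 1, 42697146 to 42700210, plus strand), was at 22.83, 21.36 and 22.78 FPKM in wild type and at 27.30, 20.94 and 22.56 FPKM in NICD2. NICD2 replicate 1 was above and replicate 2 below all wild type values. The log2 fold change was 0.07 ± 0.10 (95% interval -0.15 to 0.29, limma adjusted p = 0.706), and -0.04 without NICD2 replicate 1. Of 19 tested loop genes, 8 fell and 2 rose (median log2 fold change -0.29). The urea transporter gene Slc14a2 fell (log2 fold change -1.89, adjusted p = 5.72e-06), while Umod, uromodulin, rose (1.55, adjusted p = 2.20e-05). Whether the change of Slc14a2 arose in the loop or in other cells of the whole kidney was not tested. Tmem207, at 1.02 to 1.25 FPKM in wild type and at most 0.09 in NICD2, is counted among those that fell but passed the filter only through wild type, and it was not tested when any wild type library was removed. The count that fell was 5 without wild type replicate 1 or 3 and 4 without wild type replicate 2. The stricter filter left 16 loop genes, of which 3 rose. Of 11 distal tubule genes, 4 fell and 2 rose, with Emx1 at -0.51, Klhl3 at -0.48 and Sgms2 at 0.52 (adjusted p = 0.00568, 0.00847 and 0.01). Pvalb, at 1.49 to 1.90 FPKM in wild type and 0.15 to 0.32 in NICD2, is likewise counted among those that fell, passed the filter only through wild type and was not tested when any wild type library was removed. In the distal list 2 fell without wild type replicate 2 or 3. The number that rose was 1 when any wild type library or NICD2 replicate 3 was removed, as it was with no filter and with the stricter one.

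**Figure D4:**
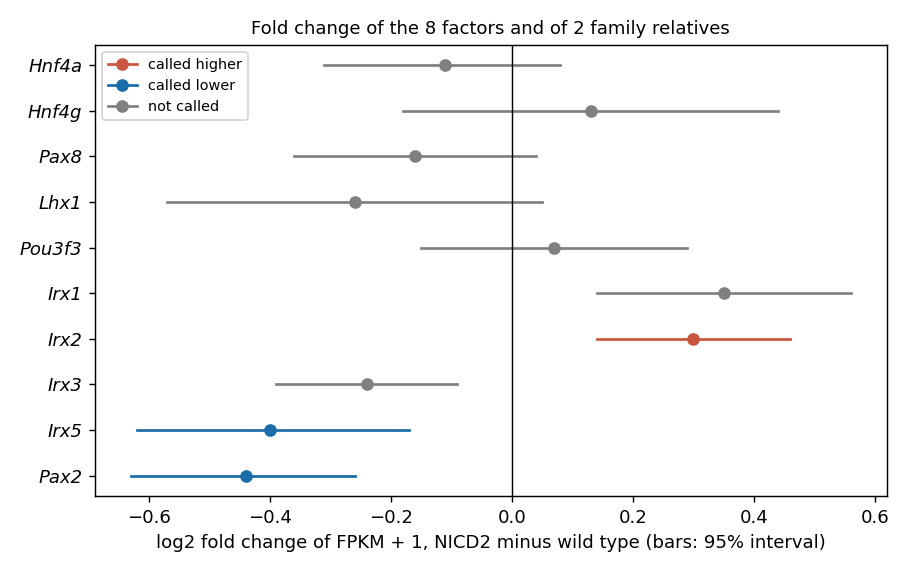
Log2 fold change of FPKM + 1, NICD2 minus wild type (x axis), with the 95% interval from limma as a bar, for the 8 factors and the relatives Irx5 and Pax2 (y axis). Irx2 is called higher at 0.30 and Irx5 and Pax2 lower at -0.40 and -0.44, and the intervals of Irx1 and Irx3 do not reach 0 although neither passed the adjusted threshold.

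Other transcription factors of kidney tubules gave more calls. Of 26 on a list chosen beside the members, 10 fell and 3 rose (median log2 fold change -0.19). That the 8 factors and these 26 differ was not tested, and earlier results of these data were known when the list was made. Among those that fell were Foxi1 of intercalated cells (log2 fold change -2.31, adjusted p = 1.50e-05), Emx1, Osr2, Tfeb (-0.58, adjusted p = 0.00917), Maf (-0.47, adjusted p = 0.0111), Pax2, Tfap2b (-0.42, adjusted p = 0.0144), Bcl6 (-0.51, adjusted p = 0.0243) and Irx5. Those that rose were the epithelial factors Elf5, Elf3 and Grhl2 (0.56, 0.52 and 0.34, adjusted p = 0.0179, 0.0448 and 0.0447). Tfap2b kept its call unless wild type replicate 2, wild type replicate 3 or NICD2 replicate 1 was removed (highest adjusted p = 0.0659), and Bcl6 lost it with wild type replicate 1 or 2, NICD2 replicate 1 or NICD2 replicate 3 removed (highest 0.0991). Elf3 was called in 1 of the 6 such fits, the one lacking NICD2 replicate 3, and Grhl2 in 1, the one lacking NICD2 replicate 2. Without wild type replicate 2 or NICD2 replicate 1 the count of the list that fell was 7. It was 8 without wild type replicate 3, and 9 when any other library was removed. None of the list was called higher without wild type replicate 2 or 3. In the fits without wild type replicate 1 or NICD2 replicate 1, 1 was called higher, as with no filter on low values.

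**Figure D5:**
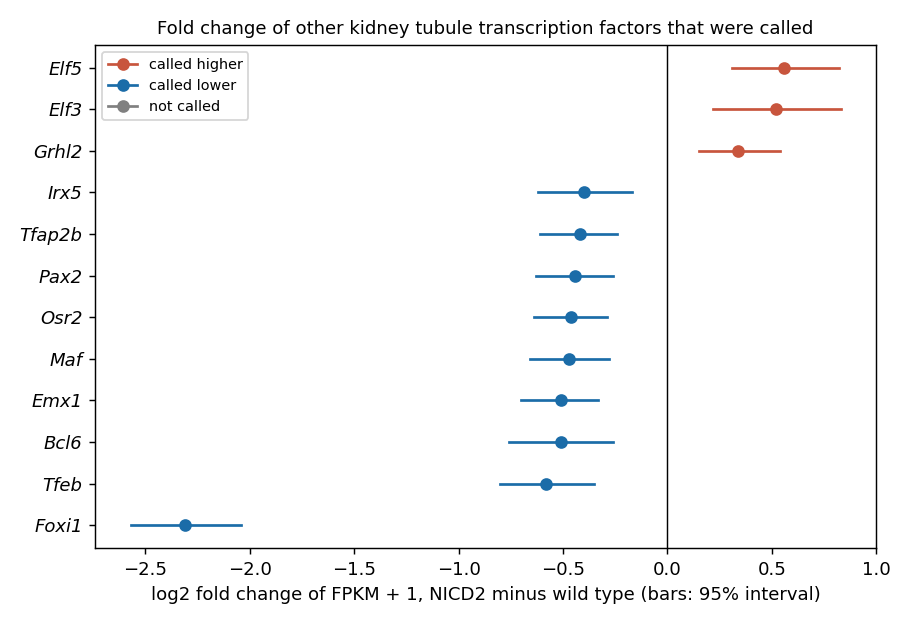
Log2 fold change of FPKM + 1, NICD2 minus wild type (x axis), with the 95% interval from limma as a bar, for called factors named from the list of other tubule transcription factors (y axis, sorted by fold change). Foxi1 lies farthest from 0 of those plotted at -2.31, and the others lie between -0.58 and 0.56.

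Summed levels of marker lists of other cells did not overlap between the genotypes for some lists and overlapped for others. Of 10 podocyte genes 8 fell, with a summed level of 537 to 558 FPKM in wild type and 420 to 432 in NICD2. With a library removed, 6 or 7 of the podocyte genes were called lower. Of 8 intercalated cell genes, Foxi1 among them, 6 fell, and the sums were 236 to 240 FPKM in wild type and 126 to 140 in NICD2. When a wild type library was removed 6 of the intercalated cell genes passed the filter and 4 were called, whichever of the 3 it was. Slc26a4 and Aqp6 of this list passed the filter only through wild type. Of 8 principal cell genes 5 fell, while Scnn1g, a subunit of the epithelial sodium channel, rose (log2 fold change 0.79, adjusted p = 0.00184), and the sums were 375 to 403 FPKM in wild type and 201 to 242 in NICD2. The summed level of 6 endothelial genes was 244.0 to 269 FPKM in wild type and 197 to 220 in NICD2. Of these 6 only Emcn (-0.44, adjusted p = 0.00437) and Tek (-0.34, adjusted p = 0.0310) were called, and Tek was called in 2 of 6 fits with a library removed, those lacking wild type replicate 1 or NICD2 replicate 3. The sums overlapped for 8 stromal genes (953 to 1093 and 992 to 1210.0 FPKM), 6 red cell genes (1257 to 3014 and 1128 to 1780.0 FPKM) and 7 liver genes (92.1 to 114 and 75.9 to 110.2 FPKM). The part of these cell types in the members' values was not tested.

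Within groups the members' highest values were not spread evenly over libraries. The share over all tested genes was not computed, so the counts are not read as a trait of the members. NICD2 replicate 1 held the highest NICD2 value for 7 of the 8 factors, all but Irx1, and wild type replicate 1 the highest wild type value for 6. NICD2 replicate 1 was also the library with the lowest adrenal sum, and the part of that in these values was not tested. Of the other relatives, Pou3f1, Pou3f2, Pou3f4, Lhx2, Lhx9 and Pax5 were at or below 0.21 FPKM in every library, and Lhx5 had no value.

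The spans of other members overlap genes on the opposite strand in GENCODE M21, namely Hnf4aos with Hnf4a over 34912 bases, Gm13415 with Pax8 over 35182 bases and Irx3os with Irx3 over 1240 bases. The row of Pou3f3 lies within AC122898.1, a noncoding gene on the same strand, and starts downstream of the RefSeq start used for its promoter. Those noncoding genes were not analysed here. Whether their fragments are counted in the rows of Hnf4a, Pax8, Irx3 and Pou3f3 is not known, as for Lhx1. The authors' deposited table, from their DEGseq comparison of the groups, gave all 8 factors a q under 0.05, as it did 48.9% of 18724 genes. The log2 fold changes in the authors' deposited table were 0.36 for Irx1, 0.34 for Irx2, -0.25 for Irx3, -0.16 for Pax8, -0.18 for Lhx1, -0.12 for Hnf4a, 0.26 for Hnf4g and 0.08 for Pou3f3. All have the sign found here, from the same libraries.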

How the data were processed

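RNA was extracted with Trizol from frozen kidneys and sequenced from Illumina TruSeq libraries, per the labels' protocols. The authors deposited 1 table with FPKM per gene and library to 2 decimals, with the log2 fold change and the DEGseq q-value (an adjusted p-value) of the authors' own comparison. Bowtie 0.12.2 and mm8 stand in the submitters' processing notes, while the table's gene positions fit GRCm38. No source used here names the program behind the FPKM. Of 23669 rows, 4010 without values were left out, and 27 columns comparing pairs of samples were not used. The column for the longest transcript, a deposited value in bases, gave lengths.

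Values were taken as log2(FPKM + 1), genes reaching 1 FPKM in 3 or more libraries were tested, and the groups were compared with limma 3.58.1 in R 4.3.3 (mean-variance trend, no covariate, two-sided), with p-values adjusted over all tested genes. Intervals are 95% from the same fit. On simulated FPKM of 13583 genes, 67, 67 and 66 genes were changed by 0.5, 1 and 2 on the log2 scale. This comparison recovered 73.1%, 100% and 100% of these changes, and 4.71% of calls were false. Changes were placed only in genes above 2 FPKM, and noise was drawn independently for each library. In the data 8.79% of tested genes were called, so these shares may differ there. Depth was estimated as the library size that makes low FPKM of single-transcript genes whole fragments, and 78.6% to 81.1% came within 0.15 of a whole number, where 30.0% do by chance. Ratios were tested by exact permutation. The members and gene lists were chosen with earlier results of these data known. Genes named were the members, their relatives, Notch response genes, called genes of the list of other tubule factors, and up to 4 called genes with the smallest p of each other list described, and some genes that this rule names are not reported here. Alternatives were a pseudocount of 0.1, no filter, a filter at 5 FPKM, median-ratio scaling, a replicate block and removal of each library in turn. An adrenal term was added after the values were seen. Python 3.11.15, pandas 2.3.3, scipy 1.17.1 and matplotlib 3.10.9 were used.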

Additional observations from a re-analysis of the deposited data

How the results depend on the processing

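The count of members called was 1, with 0 under no filter on low values and 2 (Irx1 and Irx2) under the stricter filter, median-ratio scaling and the replicate block. Leaving out a library gave 0 to 2. With the pseudocount of 0.1 or the adrenal term it was 1. Over all tested genes 1210 were called, 603 to 955 when a library was left out and 894 to 1230 otherwise. The log2 fold change of Pou3f3 ran from -0.04 without NICD2 replicate 1 to 0.15 without NICD2 replicate 2, and the log2 difference of Irx1 over Irx2 was -0.03 without NICD2 replicate 2. The cause was not tested. Under these alternatives no other member changed direction, and no member was called lower. Under the stricter filter Hnf4g was not tested. Whether replicate numbers pair the samples is not known. Deviations from the group means correlated at -0.033, 0.059 and -0.045 between same-numbered libraries. These correlations cannot exclude pairing, since the deviations of 3 libraries from their mean sum to 0. Each library correlated best with one of another number (wild type 3 with NICD2 1 at 0.246, wild type 1 with NICD2 2 at 0.207, wild type 2 with NICD2 3 at 0.235), and the first of these pairs is the 2 libraries with few adrenal transcripts. With the replicate block 1055 genes were called. With 3 libraries per group, changes of 0.5 on the log2 scale were missed in part on simulated data, and the differences of the 8 factors were all smaller than that.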
